A study of Saccharomyces cerevisiae with 8 samples.

Results

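The genes described here are the 38 nuclear genes of budding yeast listed for the mitochondrial NADH dehydrogenases, respiratory complexes II, III and IV, and the ATP synthase. They were listed by gene name and not by a cut on signal, though with earlier results of these data known. Each of the 38 was read by 1 probe set among the 5498 that the platform annotation assigns to a single Saccharomyces cerevisiae gene. The list holds 3 NADH dehydrogenases, 4 genes of complex II, 9 of complex III, 7 of complex IV and 15 of the ATP synthase, counting its inhibitor INH1. Transcript abundance was measured on 8 Affymetrix expression arrays, 2 for each of 4 strain labels, from separate experiments and cultures. BY4741 is labelled wild type and A880 is labelled as BY4741 with POP2 deleted. The POP2 protein belongs to CCR4-NOT and helps to remove poly(A) from messenger RNA. A880STM1 is labelled as A880 that received unaltered STM1, whose product binds ribosomes, and A880STM1K as A880 that received STM1 R237K, an arginine to lysine change numbered as in the labels. The series title speaks of overexpression, while the vector, promoter and copy number of the added genes and the number of clones were not stated in what was used here. Every culture was grown in synthetic complete medium with 2% glucose until it reached an optical density of 1, washed, moved to 2% glycerol and harvested 12 hours later in early log phase.

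Glycerol cannot be fermented by budding yeast, so growth on it depends on the respiratory chain. Electrons from NADH enter through single-subunit dehydrogenases, NDI1 on the matrix side of the inner membrane and NDE1 and NDE2 on its outer side, since this species has no proton-pumping complex I. They pass, with electrons from succinate (complex II), through ubiquinone to complex III, cytochrome c and complex IV, and the proton gradient made by complexes III and IV drives the ATP synthase. The genes are known to be repressed by glucose, and many are activated by the HAP complex, in which HAP4 is the subunit whose abundance follows the carbon source. A few core subunits of complexes III and IV and of the ATP synthase membrane part are encoded in mitochondrial DNA and are not analysed here.

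Values are the deposited probe set signal on a linear scale, which was scaled to a common level on each array and so gives relative abundance in the RNA of a whole culture. A change is a log2 difference of group means ± SE from limma fitted over all 8 arrays, n = 2 arrays in every group, and a gene was called higher or lower when its p, adjusted by the Benjamini-Hochberg method over 5496 tested probe sets, was below 0.05. A signal cannot be set against that of another gene, because probe sets differ in brightness. The genes named in the labels were read first. POP2 signal was 883 and 814 on the BY4741 arrays, 0.221 and 0.452 on the A880 arrays, 181 and 286 on those labelled A880STM1 and 255 and 176 on those labelled A880STM1K. It was at least 140.4-fold lower on the A880 arrays than on the BY4741 arrays (adjusted p = 1.56e-07) and was detected on all 4 arrays of the transformed strains, against their labels. STM1 signal was 2043 and 2566 on the BY4741 arrays, 2960.3 and 3096 on the A880 arrays, 9441 and 5027 on those labelled A880STM1 and 8697 and 8143 on those labelled A880STM1K, higher on both pairs of transformed-strain arrays than on the A880 arrays without overlap. URA3, a pyrimidine synthesis gene that also serves as a selectable marker, was not above background on the BY4741 arrays (3.32 and 1.14). It reached 5062 and 5537 on the A880 arrays, 4956 and 4315 on those labelled A880STM1 and 1850 and 1384 on those labelled A880STM1K. BY4741 and A880 therefore differ in more than POP2 signal, and whether a site outside POP2 was altered was not tested. Replicates of the transformed strains differed more than those of the others. For the 38 genes the median size of the log2 difference between replicates was 0.066 for BY4741, 0.080 for A880, 0.357 for A880STM1 and 0.336 for A880STM1K. Of the 38 genes, 35 were brighter in replicate 1 of A880STM1 and 34 were brighter in replicate 2 of A880STM1K. These are among the brightest probe sets of the arrays: their median lay between percentiles 85.0 and 97.3 of the tested probe sets, where an array's signal can be compressed, which was not tested. Setting the array medians equal moved the all-probe-set median from log2 0.017 to -0.10 for A880 against BY4741, from -0.27 to 0.12 for A880STM1 against A880 and from -0.11 to 0.12 for A880STM1K against BY4741.

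Respiratory transcripts were mostly near the BY4741 level on the A880 arrays, higher on the arrays labelled A880STM1, and split on the arrays labelled A880STM1K, where most ATP synthase genes fell and NDE1 and CYT1 rose against A880. How many genes of complexes II and IV and of the ATP synthase were called there depended on how the arrays were scaled. Of 9 ATP synthase stalk, membrane and dimer subunits, 8 fell against A880 as deposited, 9 under quantile normalization and 5 after equalising array medians. In complex III 2 rose and 1 fell under the deposited and equal-median scalings, and 1 rose and 2 fell under quantile normalization. Of all tested probe sets 47.1% were called in this comparison as deposited (28.0% lower), 53.8% under quantile normalization and 49.3% after equalising array medians. Relative to the BY4741 mean, the median of the 38 genes was log2 0.12 and 0.21 on the A880 arrays, 0.84 and 0.43 on the arrays labelled A880STM1, and -0.62 and -0.15 on those labelled A880STM1K. All tested probe sets had medians of log2 0.022 and 0.021, -0.37 and -0.099, and -0.029 and -0.19 in the same order. The genes also spread apart on the A880STM1K arrays. The SD over the 38 genes of these log2 differences was 0.39 and 0.40 on the A880 arrays, 0.54 and 0.48 on the arrays labelled A880STM1 and 1.16 and 1.02 on those labelled A880STM1K. A scale factor common to an array leaves this SD as it is, while an effect of compressed signal on it was not tested. Over all tested probe sets the SD was 0.85 and 0.87, 0.91 and 0.68, and 1.30 and 1.27, so a wider spread on the A880STM1K arrays was not limited to respiratory genes.

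**Figure D1:**
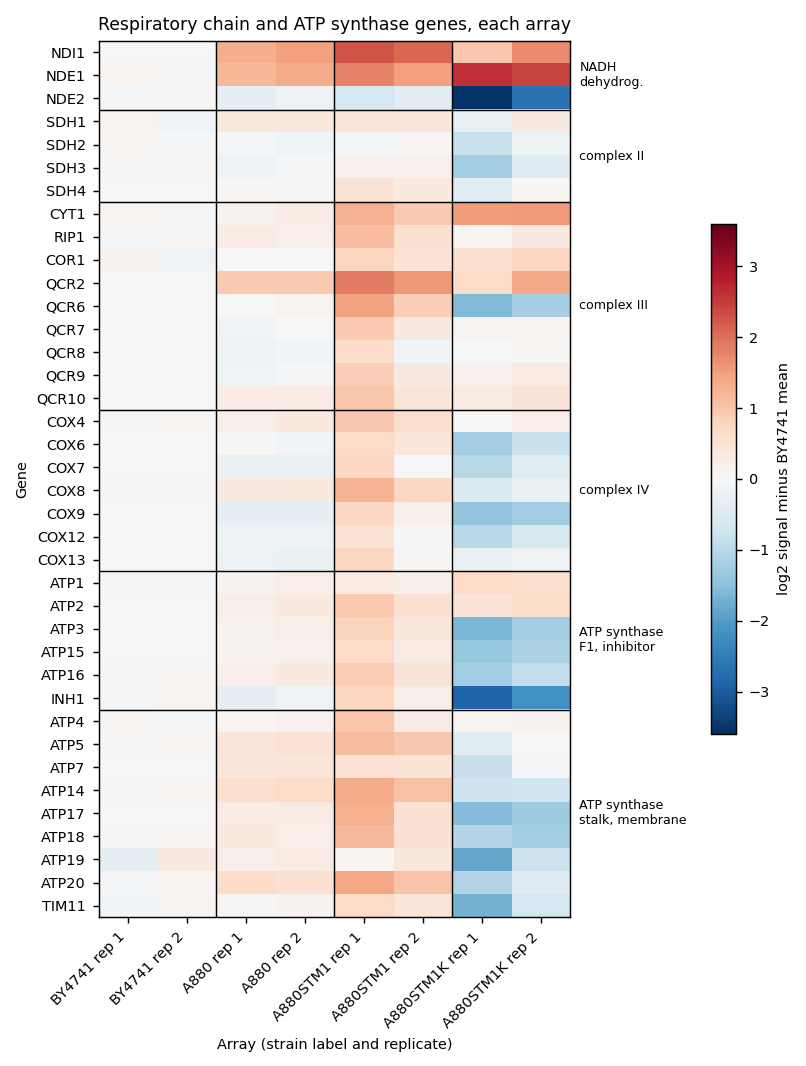
Heat map of log2 signal minus the mean of the BY4741 arrays for the 38 genes (rows, grouped by complex) on each of the 8 arrays (columns), with the colour scale in log2 units. The arrays labelled A880STM1 are mostly above 0, while those labelled A880STM1K range from NDE1 at the top to NDE2 and INH1 at the bottom.

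The comparison of A880 with BY4741 asks which respiratory transcripts differ when POP2 is missing, with the limit that the strains also differ in URA3 signal. NDI1, NDE1 and the complex III core protein QCR2 rose, and no other gene of the 38 was called. These 3 calls stand against 7.71% of all tested probe sets called higher, and 0 of the 38 were called lower against 6.19% (13.9% in either direction), with 0 lower at an unadjusted p under 0.05 in limma. The median of the 38 was log2 0.17, against 0.017 for all tested probe sets. Each of the 3 calls was lost when at least 1 of the 4 arrays was left out. Such fits leave 1 array in a group, and they called far fewer of all tested probe sets as well. The median of the 38 was log2 0.17 without BY4741 replicate 1 and 0.17 without BY4741 replicate 2. It was log2 0.21 without A880 replicate 1 and 0.12 without A880 replicate 2. The count of calls was 9 with quantile normalization, where 25.6% of all tested probe sets were called. With only these 4 arrays in the fit, whose replicates lay close together, 16 of the 38 were called higher and 4 lower, in a setting that called 54.4% of all tested probe sets.

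Setting A880STM1 beside A880 addresses the effect of extra STM1 where POP2 is deleted, although the arrays labelled A880STM1 held POP2 signal. CYT1, QCR6 and COX9 rose, and 37 of the 38 estimates lay above 0. The 3 higher and 0 lower calls stand against 6.82% and 13.1% of all tested probe sets (19.9% in either direction), and 20 were higher and 0 lower at an unadjusted p under 0.05 in limma. The median of the 38 was log2 0.53, against -0.27 for all tested, and it was 0.74 in replicate 1 and 0.28 in replicate 2. On A880STM1 replicate 1 the tested probe sets had a median of 485 and a 99th percentile of 8469, against 732 and 4957 on A880 replicate 1. These were 628 and 5503 on A880STM1 replicate 2, against 712 and 5360 on A880 replicate 2. The brightest probe sets as a class thus lay higher on A880STM1 replicate 1, and the 38 genes were not compared with equally bright ones. The count depended on which arrays were used, being 0 when A880 replicate 1, A880 replicate 2 or A880STM1 replicate 1 was dropped and 24 when A880STM1 replicate 2 was. The fits with no call had 3, 7 and 6 genes at an unadjusted p under 0.05 in limma. Scaling mattered as well: the median was log2 0.18 under quantile normalization and 0.92 once the array medians were equal. Against BY4741, 14 of the 38 were higher and 0 lower, where 5.40% and 6.30% of all tested probe sets were (11.7% in either direction), with 0 lower at an unadjusted p under 0.05 in limma. The 14 were NDI1, NDE1, CYT1, RIP1, QCR2, QCR6, COX4, COX8, ATP2, ATP5, ATP14, ATP17, ATP18 and ATP20. Their calls rested on few arrays except those of NDI1 and NDE1, which held under every alternative tried. The median of the 38 was log2 0.62, against -0.24 for all tested. The count of calls was 9 with equal array medians, where 10.0% of all tested probe sets were called. Fewer of the 38 and of all tested probe sets were called when 1 array was dropped, except for A880STM1 replicate 2, where more of both were. The median of the 38 was log2 0.61 without BY4741 replicate 1 and 0.61 without BY4741 replicate 2. It was log2 0.43 without A880STM1 replicate 1 and 0.84 without A880STM1 replicate 2.

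The comparisons of A880STM1K ask the same of STM1 R237K, with the limit that URA3 signal differed as well. The URA3 change in A880STM1K was log2 -1.73 ± 0.42 (adjusted p = 0.00667) against A880 and log2 -1.53 ± 0.42 (adjusted p = 0.0168) against A880STM1. Its source was not tested. 18 of the 38 genes were lower and 3 higher than on the A880 arrays, against 28.0% and 19.1% of all tested probe sets (47.1% in either direction). The median was log2 -0.51, against -0.17 for all tested. Equal array medians moved the median of all tested probe sets to log2 0.18 and that of the 38 genes to -0.17, with 11 lower and 4 higher. Quantile normalization went the other way, with 27 lower and 2 higher, a median of log2 -0.82 and 53.8% of all tested probe sets called. The median was log2 -0.23 without A880STM1K replicate 1. Set directly against the arrays labelled A880STM1, 23 of the 38 were lower and 1, NDE1, was higher, where 17.1% and 17.9% of all tested probe sets were (35.0% in either direction). The median there was log2 -0.97, against 0.097 for all tested, and -0.59 without A880STM1K replicate 1. Against BY4741, 16 were lower and 7 higher, beside 28.3% and 21.2% of all tested probe sets (49.5% in either direction). The counts were 9 and 5 with equal array medians, where 50.9% of all tested probe sets were called. Fewer were called without BY4741 replicate 2, both of the 38 genes and of all tested probe sets. In that comparison the median of the 38 was log2 -0.40, against -0.11 for all tested, -0.17 with equal array medians and -0.15 without A880STM1K replicate 1. 15 genes were called lower on the A880STM1K arrays against each of the other 3 groups: NDE2, SDH3, QCR6, COX6, COX9, INH1 and the ATP synthase subunits ATP3, ATP14, ATP15, ATP16, ATP17, ATP18, ATP19, ATP20 and TIM11. Of all tested probe sets 12.2% were called lower against all 3. With equal array medians 8 of these kept all 3 calls, the 7 lost being SDH3, COX6, COX9, ATP14, ATP16, ATP20 and TIM11. These comparisons share the A880STM1K arrays, so their calls are not independent of each other. POP2 signal was 27.5% of the BY4741 mean on the arrays labelled A880STM1 and 25.4% on those labelled A880STM1K, and its part in the changes against A880 was not tested.

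**Figure D2:**
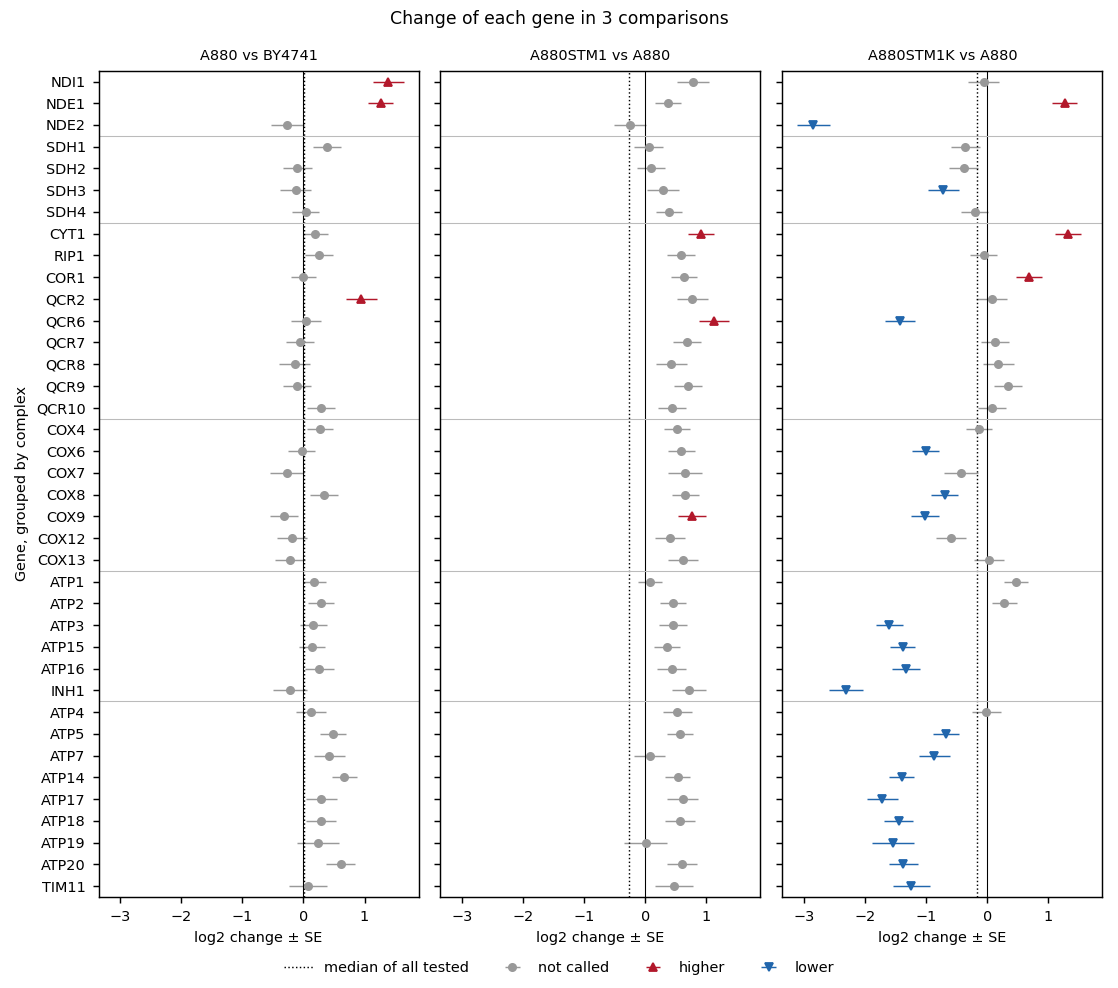
Log2 change ± SE (horizontal axis) of each of the 38 genes (vertical axis, grouped by complex) in 3 comparisons, with called genes as coloured triangles, other genes as grey circles and the median of all tested probe sets as a dotted line. The panel for A880STM1K holds 18 lower and 3 higher calls, and that for A880 holds 3 calls, all higher; the panels for A880STM1 and A880STM1K share the A880 arrays.

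The NADH dehydrogenases moved apart. NDI1 oxidises NADH inside mitochondria, and its signal was 1047 and 1063 on the BY4741 arrays, 2606 and 2932 on the A880 arrays, 5114 and 4415 on those labelled A880STM1 and 2049.6 and 3427 on those labelled A880STM1K. It was lowest on both BY4741 arrays and highest on both A880STM1 arrays, while the A880STM1K arrays lay on either side of the A880 ones. NDI1 was higher than in BY4741 by log2 1.39 ± 0.26 (adjusted p = 0.00789) in A880, log2 2.17 ± 0.26 (adjusted p = 0.000814) in A880STM1 and log2 1.33 ± 0.26 (adjusted p = 0.00179) in A880STM1K. The first of these calls was lost without BY4741 replicate 1, BY4741 replicate 2 or A880 replicate 2, and the other 2 held under every alternative tried. NDE1 oxidises NADH of the cytosol, and its signal was 1223 and 1090.2 on the BY4741 arrays, 2628 and 2925 on the A880 arrays, 3972 and 3244 on those labelled A880STM1 and 7100.2 and 6265 on those labelled A880STM1K. No 2 groups overlapped for NDE1, which stood at each step above the one before in the order BY4741, A880, A880STM1 and A880STM1K. Its change was log2 1.26 ± 0.21 (adjusted p = 0.00491) for A880 against BY4741, lost when BY4741 replicate 1, BY4741 replicate 2 or A880 replicate 2 was left out. The step from A880 to A880STM1, log2 0.37 ± 0.21 (adjusted p = 0.206), did not pass the test, with an interval of log2 -0.090 to 0.84. NDE1 rose in A880STM1K by log2 1.27 ± 0.21 (adjusted p = 0.000943) against A880, a call that held under every alternative tried. The rise of log2 0.89 ± 0.21 (adjusted p = 0.00815) against A880STM1 was lost with only the 4 arrays compared (log2 0.89, adjusted p = 0.112). NDE2, the second dehydrogenase facing the cytosol, ran the opposite way with signals of 4820.2 and 5029.5 on the BY4741 arrays, 3895 and 4321 on the A880 arrays, 3209.6 and 3700.4 on those labelled A880STM1 and 428 and 759.5 on those labelled A880STM1K. Its groups did not overlap either, in the reverse order of NDE1. NDE2 was not called for A880 against BY4741, at log2 -0.26 ± 0.27 (adjusted p = 0.546), or for A880STM1 against A880, at log2 -0.25 ± 0.27 (adjusted p = 0.496). On the A880STM1K arrays NDE2 was 7.2-fold lower than on the A880 arrays, log2 -2.85 ± 0.27 (adjusted p = 4.28e-05), and 8.64-fold lower than on the BY4741 arrays, log2 -3.11 ± 0.27 (adjusted p = 1.90e-05).

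**Figure D3:**
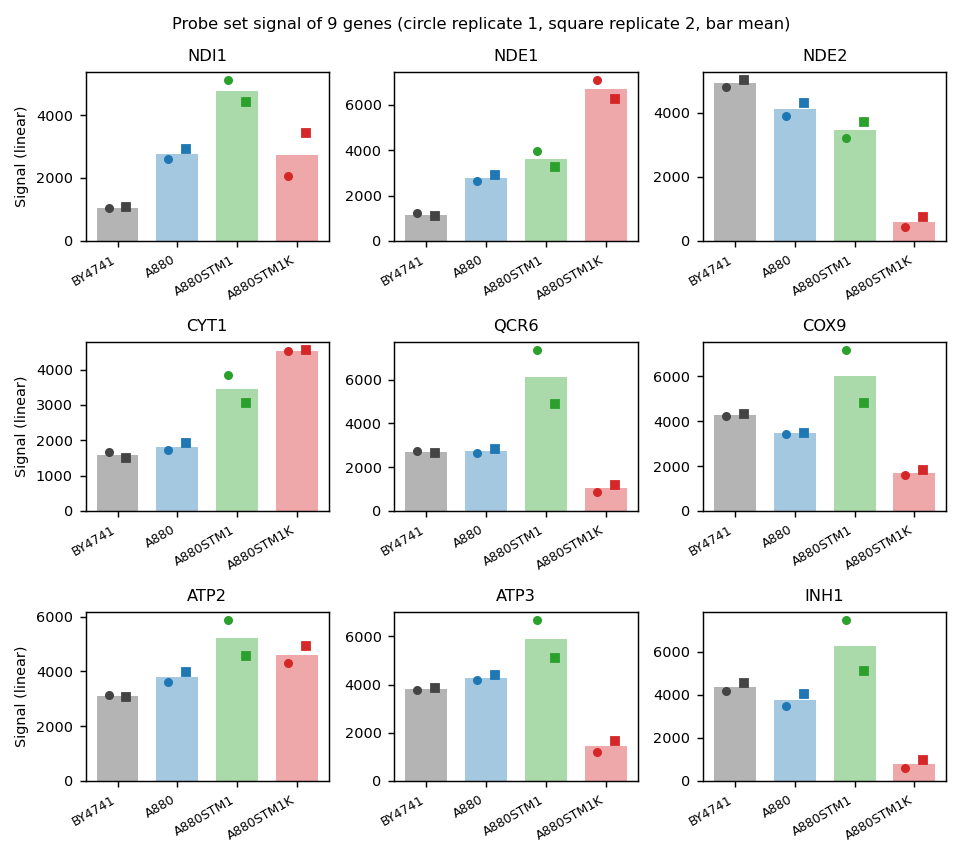
Probe set signal on a linear scale (vertical axis) of 9 genes by strain label (horizontal axis), with a circle for replicate 1, a square for replicate 2 and a bar for the mean of the 2 arrays. NDE1 climbs across the 4 groups while NDE2 declines, and on the A880STM1K arrays QCR6, COX9, ATP3 and INH1 are low where CYT1 and ATP2 are not.

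Complex II, the succinate dehydrogenase that also serves the tricarboxylic acid cycle, had 1 gene called in A880STM1K against A880, SDH3. The other 3 were called only under some alternatives. With quantile normalization all 4 fell, at a median of log2 -0.71, and with equal array medians 0 did, at -0.023. Those settings called 53.8% and 49.3% of all tested probe sets, beside 47.1% as deposited. SDH1, the flavoprotein subunit, had signals of 3713 and 3271 on the BY4741 arrays, 4558 and 4568 on the A880 arrays, 4741 and 4727 on those labelled A880STM1 and 2887 and 4397 on those labelled A880STM1K. SDH2, the iron-sulfur subunit, had 5108 and 4644 on the BY4741 arrays, 4671 and 4413 on the A880 arrays, 4624 and 5051 on those labelled A880STM1 and 2812 and 4280.0 on those labelled A880STM1K. Neither gene was called as deposited, and with quantile normalization both were lower in A880STM1K than in A880, SDH1 at log2 -0.70, adjusted p = 0.0275 and SDH2 at log2 -0.73, adjusted p = 0.0315. Both A880STM1K arrays were the lowest of the 8 for SDH2. The membrane anchor SDH3 had 3312 and 3479 on the BY4741 arrays, 2992 and 3249.9 on the A880 arrays, 3810.2 and 3805 on those labelled A880STM1 and 1449 and 2477 on those labelled A880STM1K, and SDH4, the other anchor, had 3104 and 3056 on the BY4741 arrays, 3149 and 3164 on the A880 arrays, 4349 and 3904 on those labelled A880STM1 and 2323 and 3212 on those labelled A880STM1K. For SDH3 both A880STM1 arrays were the highest and both A880STM1K arrays the lowest, whereas for SDH4 the A880STM1K arrays lay on either side of BY4741 and A880. SDH3 fell in A880STM1K, with changes of log2 -0.72 ± 0.25 (adjusted p = 0.0386) against A880, log2 -1.01 ± 0.25 (adjusted p = 0.012) against A880STM1 and log2 -0.84 ± 0.25 (adjusted p = 0.0189) against BY4741. The calls against A880 and BY4741 were lost with equal array medians and without A880STM1K replicate 1, and that against A880 also with no intensity trend. Dropping either array of A880 or BY4741 ended the respective call, and the call against A880STM1 was lost without A880STM1 replicate 2. Without A880STM1K replicate 1 the SDH3 change against A880 was log2 -0.33, adjusted p = 0.184. SDH4 was called in no comparison as deposited, and with quantile normalization it was lower in A880STM1K than in A880 at log2 -0.51, adjusted p = 0.0239.

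In complex III CYT1 and COR1 rose and QCR6 fell on the A880STM1K arrays against A880. The median of its 9 genes there, log2 0.13, took its sign from the scaling. With quantile normalization it was log2 -0.21, with 1 gene higher (CYT1) and 2 lower (QCR6 and RIP1, the latter at log2 -0.41, adjusted p = 0.0295), and with equal array medians it was 0.48. As deposited, against BY4741 3 rose and 1 fell, beside 21.2% and 28.3% of all tested probe sets. CYT1 is cytochrome c1, a heme-carrying subunit, and its signal was 1665 and 1508 on the BY4741 arrays, 1723 and 1916 on the A880 arrays, 3846 and 3044 on those labelled A880STM1 and 4518 and 4558 on those labelled A880STM1K. All 4 groups were separate for CYT1, in the same rising order as for NDE1. It rose by log2 0.91 ± 0.21 (adjusted p = 0.0177) in A880STM1 and by log2 1.32 ± 0.21 (adjusted p = 0.000716) in A880STM1K, both against A880. The first was lost without A880 replicate 1, A880 replicate 2 or A880STM1 replicate 1, and the second held under every alternative tried. COR1 and QCR2 are the core proteins that face the matrix. COR1 signal was 4283 and 3534 on the BY4741 arrays, 3882 and 3904 on the A880 arrays, 6664 and 5482 on those labelled A880STM1 and 5854 and 6674 on those labelled A880STM1K, higher on all 4 arrays of the transformed strains than on the other 4. COR1 rose in A880STM1K by log2 0.68 ± 0.21 (adjusted p = 0.0223) against A880, a call lost with quantile normalization (log2 0.31, adjusted p = 0.132) and without A880 replicate 1, A880 replicate 2 or A880STM1K replicate 2. QCR2 signal was 1382 and 1363 on the BY4741 arrays, 2658 and 2647 on the A880 arrays, 5041 and 4049 on those labelled A880STM1 and 2191 and 3564 on those labelled A880STM1K, lowest on the BY4741 arrays. It rose against BY4741 by log2 0.95 ± 0.25 (adjusted p = 0.0323) in A880, log2 1.72 ± 0.25 (adjusted p = 0.00277) in A880STM1 and log2 1.03 ± 0.25 (adjusted p = 0.0069) in A880STM1K. The A880 call was lost when any 1 of the 4 arrays was left out, with equal array medians and with no intensity trend. The A880STM1 call was lost without A880STM1 replicate 1.

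QCR6, a small acidic subunit next to cytochrome c1, moved in opposite directions in the transformed strains. Its signal was 2719 and 2632 on the BY4741 arrays, 2652 and 2839 on the A880 arrays, 7369 and 4897 on those labelled A880STM1 and 884 and 1171 on those labelled A880STM1K. BY4741 and A880 overlapped, both A880STM1 arrays lay above them and both A880STM1K arrays below. Against A880, QCR6 rose by log2 1.13 ± 0.25 (adjusted p = 0.0148) in A880STM1 and fell in A880STM1K, where the change was log2 -1.43 ± 0.25 (adjusted p = 0.00116), both measured from the same A880 arrays. The difference between them was log2 -2.56 ± 0.25 (adjusted p = 7.17e-05). The rise was lost without A880 replicate 1, A880 replicate 2 or A880STM1 replicate 1, and the other 2 calls held under every alternative tried. Of the other complex III genes, RIP1, the Rieske iron-sulfur protein, was higher in A880STM1 than in BY4741 by log2 0.84 ± 0.23 (adjusted p = 0.0406). That call was lost with equal array medians, with no intensity trend and without either BY4741 array or A880STM1 replicate 1. The small subunits QCR7, QCR8, QCR9 and QCR10 were called in no comparison as deposited, with changes of log2 -0.15 to 0.29 for A880 against BY4741, 0.43 to 0.70 for A880STM1 against A880 and 0.080 to 0.34 for A880STM1K against A880.

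Complex IV, the cytochrome oxidase, was lower on the arrays labelled A880STM1K than on those labelled A880STM1 for 6 of its 7 nuclear genes listed. COX13 was the one not called, and of all tested probe sets 17.1% were called lower. Of the 6, the calls of COX4, COX7 and COX12 were lost with equal array medians. Those of COX4 and COX7 were also lost without A880STM1 replicate 1 or A880STM1K replicate 1. Those of COX4 and COX12 were lost with only the 4 arrays compared, and that of COX4 also with no intensity trend. COX9 signal was 4245 and 4327 on the BY4741 arrays, 3429.5 and 3482 on the A880 arrays, 7179.7 and 4825 on those labelled A880STM1 and 1609 and 1803 on those labelled A880STM1K. COX8 signal was 2631 and 2843 on the BY4741 arrays, 3414 and 3492 on the A880 arrays, 6393 and 4606 on those labelled A880STM1 and 1941 and 2337 on those labelled A880STM1K. For both of these small membrane subunits the 4 groups were separate, with A880STM1 highest and A880STM1K lowest. COX6, a subunit on the matrix side, had 3564 and 3620.0 on the BY4741 arrays, 3672 and 3387 on the A880 arrays, 5848 and 4816 on those labelled A880STM1 and 1504 and 2042 on those labelled A880STM1K. BY4741 and A880 overlapped for COX6 and the transformed strains lay on either side of them. Against A880STM1, the changes of A880STM1K were log2 -1.79 ± 0.23 (adjusted p = 0.000315) for COX9, log2 -1.60 ± 0.22 (adjusted p = 0.000493) for COX6 and log2 -1.35 ± 0.22 (adjusted p = 0.00133) for COX8, and these 3 calls held under every alternative tried. Against A880 the changes of A880STM1K were log2 -1.02 ± 0.23 (adjusted p = 0.00466), log2 -1.01 ± 0.22 (adjusted p = 0.00417) and log2 -0.70 ± 0.22 (adjusted p = 0.026) in the same order, and all 3 were lost with equal array medians, that of COX8 also without A880 replicate 1, A880 replicate 2 or A880STM1K replicate 1. COX12, a subunit on the outer side, had 5155 and 5018 on the BY4741 arrays, 4497 and 4455 on the A880 arrays, 7203 and 4849 on those labelled A880STM1 and 2559 and 3435 on those labelled A880STM1K, and fell between A880STM1 and A880STM1K, with a change of log2 -0.995 ± 0.24 (adjusted p = 0.0104). COX9 was the only gene of complex IV called for A880STM1 against A880, at log2 0.77 ± 0.23 (adjusted p = 0.0408). That call was lost with equal array medians (log2 1.16, adjusted p = 0.051), with no intensity trend and with only the 4 arrays compared. It was also lost without A880 replicate 1, A880 replicate 2 or A880STM1 replicate 1. The estimates for COX4, COX7 and COX13 were log2 -0.14, -0.44 and 0.026 in A880STM1K against A880, none of them called. With quantile normalization all 3 were called lower, at log2 -0.44, adjusted p = 0.0202 for COX4, log2 -0.76, adjusted p = 0.0082 for COX7 and log2 -0.35, adjusted p = 0.0384 for COX13. No gene of complex IV was called for A880 against BY4741, with changes of log2 -0.31 to 0.34.

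The ATP synthase genes divided most clearly on the arrays labelled A880STM1K, where 12 of 15 fell against A880 and ATP1, ATP2 and ATP4 were not called. Of all tested probe sets 28.0% were lower in this comparison and 19.1% higher. The catalytic head is built of alpha subunits, from ATP1, and beta subunits, from ATP2. ATP1 signal was 3852 and 3641 on the BY4741 arrays, 4056 and 4438 on the A880 arrays, 4561 and 4367 on those labelled A880STM1 and 6176 and 5599 on those labelled A880STM1K. ATP2 signal was 3132 and 3048 on the BY4741 arrays, 3608 and 3966 on the A880 arrays, 5886 and 4555 on those labelled A880STM1 and 4299 and 4918 on those labelled A880STM1K. For ATP1 both A880STM1K arrays were the highest of the 8, and for ATP2 they overlapped those labelled A880STM1. Against A880 their changes in A880STM1K were log2 0.47 ± 0.19 (adjusted p = 0.0684) and log2 0.28 ± 0.21 (adjusted p = 0.292). Against BY4741 they rose by log2 0.65 ± 0.19 (adjusted p = 0.0178) and log2 0.57 ± 0.21 (adjusted p = 0.0435), calls lost without BY4741 replicate 1 or BY4741 replicate 2. The ATP2 call was also lost without A880STM1K replicate 2, under both other scalings, with no intensity trend and with the replicate number as a block. The subunits of the central stalk behaved otherwise. ATP3, the gamma subunit that turns inside the head, had 3782 and 3872 on the BY4741 arrays, 4175 and 4402 on the A880 arrays, 6689 and 5123 on those labelled A880STM1 and 1216 and 1642 on those labelled A880STM1K. ATP15, the epsilon subunit, had 3837 and 3955 on the BY4741 arrays, 4225 and 4344 on the A880 arrays, 6227 and 4815 on those labelled A880STM1 and 1528 and 1756 on those labelled A880STM1K. ATP16, the delta subunit, had 3343 and 3547 on the BY4741 arrays, 3946 and 4324 on the A880 arrays, 6546 and 4735 on those labelled A880STM1 and 1441 and 1876 on those labelled A880STM1K. In all 3 the groups were separate, rising from BY4741 to A880 to A880STM1, with A880STM1K below all. All 3 fell in A880STM1K against A880, with changes of log2 -1.60 ± 0.23 (adjusted p = 0.000418) for ATP3, log2 -1.39 ± 0.21 (adjusted p = 0.000587) for ATP15 and log2 -1.33 ± 0.23 (adjusted p = 0.00125) for ATP16, and these calls held under every alternative tried. A scale factor common to an array leaves the log2 distance between ATP1 and these subunits as it is. Whether compression of bright signal altered that distance was not tested.

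INH1 encodes the inhibitor protein that stops the ATP synthase from running backwards and splitting ATP. Its signal was 4194 and 4558 on the BY4741 arrays, 3490.5 and 4031 on the A880 arrays, 7490.4 and 5092 on those labelled A880STM1 and 591 and 965 on those labelled A880STM1K. The groups were separate, with A880 a little below BY4741, A880STM1 highest and A880STM1K lowest. On the A880STM1K arrays INH1 was 8.18-fold lower than on those labelled A880STM1, log2 -3.03 ± 0.28 (adjusted p = 5.25e-05), and 4.97-fold lower than on A880, log2 -2.31 ± 0.28 (adjusted p = 0.000166). Both calls held under every alternative tried. INH1 was not called for A880 against BY4741, at log2 -0.22 ± 0.28 (adjusted p = 0.629), or for A880STM1 against A880, at log2 0.72 ± 0.28 (adjusted p = 0.0853).

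The peripheral stalk, membrane and dimer-forming subunits followed the central stalk, with 8 of 9 lower in A880STM1K than in A880, beside 28.0% of all tested probe sets. ATP17, subunit f of the membrane part, had 2852 and 2962 on the BY4741 arrays, 3543 and 3575 on the A880 arrays, 6999 and 4231 on those labelled A880STM1 and 977 and 1195 on those labelled A880STM1K. ATP18, a small membrane subunit, had 2819 and 3123 on the BY4741 arrays, 3790.2 and 3469.5 on the A880 arrays, 6685 and 4328 on those labelled A880STM1 and 1418 and 1239.9 on those labelled A880STM1K. ATP14, subunit h of the peripheral stalk, had 1727 and 1935 on the BY4741 arrays, 2794 and 3031 on the A880 arrays, 4644 and 3813 on those labelled A880STM1 and 1095 and 1104 on those labelled A880STM1K. A880STM1K was below and A880STM1 above every other array for all 3 genes. ATP20, subunit g, one of the proteins that join the enzyme into dimers, had 1903 and 2027 on the BY4741 arrays, 3114 and 2885 on the A880 arrays, 5123 and 4034 on those labelled A880STM1 and 949 and 1414 on those labelled A880STM1K, with the same order of groups. These 4 fell in A880STM1K against A880, with changes of log2 -1.72 ± 0.25 (adjusted p = 0.000519) for ATP17, log2 -1.45 ± 0.24 (adjusted p = 0.000958) for ATP18, log2 -1.40 ± 0.20 (adjusted p = 0.000474) for ATP14 and log2 -1.37 ± 0.24 (adjusted p = 0.00129) for ATP20, and the calls held under every alternative tried. Another 4 fell in the same comparison, with log2 changes of -1.24 ± 0.31 for TIM11, subunit e of the dimer interface, -1.55 ± 0.34 for ATP19, a small subunit found with dimers, -0.87 ± 0.25 for ATP7, subunit d of the peripheral stalk, and -0.68 ± 0.22 for ATP5, which ties the stalk to the head (largest adjusted p = 0.0254). The calls of TIM11, ATP7 and ATP5 were lost with equal array medians, those of ATP7 and ATP5 also without A880 replicate 1, A880 replicate 2 or A880STM1K replicate 1. ATP4, subunit b of the peripheral stalk, did not pass at log2 -0.014 ± 0.24 (adjusted p = 0.965), but was lower with quantile normalization at log2 -0.40, adjusted p = 0.0183. Against BY4741 the same strain had 6 of these 9 genes lower, while A880STM1 had 5 higher: ATP5, ATP14, ATP17, ATP18 and ATP20. Of all tested probe sets 28.3% were lower in A880STM1K and 5.40% higher in A880STM1. All 5 higher calls were lost without BY4741 replicate 1 or BY4741 replicate 2, and all but that of ATP14 without A880STM1 replicate 1. Those of ATP17 and ATP18 were also lost with equal array medians and with no intensity trend.

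**Figure D4:**
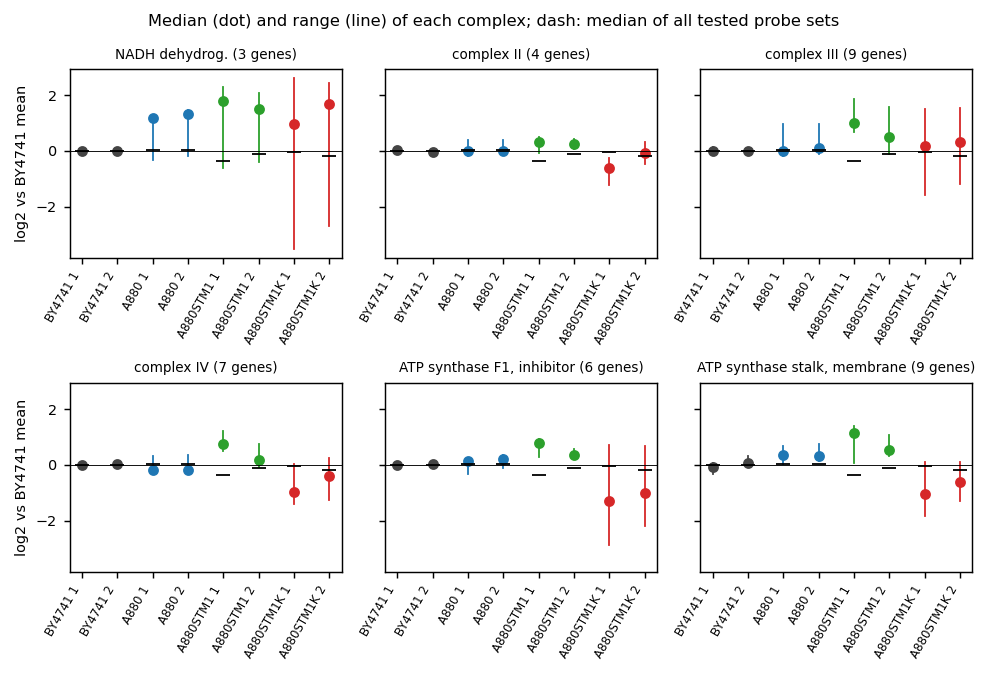
Median (dot) and range (line) over the genes of each complex of log2 signal minus the BY4741 mean (vertical axis) on each of the 8 arrays (horizontal axis), with a dash at the median of all tested probe sets. On the A880STM1K arrays the medians of both ATP synthase groups lie at log2 -1.30 and -1.01 (F1 and inhibitor) and -1.05 and -0.62 (stalk and membrane), while complex III, whose position depends on the scaling, lies at 0.17 and 0.31.

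Within complexes the genes stayed closer together in the other strains. For the 15 ATP synthase genes the SD of the log2 change against BY4741 was 0.22 in A880, 0.30 in A880STM1 and 0.84 in A880STM1K, and for complex III it was 0.34, 0.42 and 0.80. 19 of the 38 genes had both A880STM1 arrays above and both A880STM1K arrays below both A880 arrays, an arrangement found in 4.77% of all tested probe sets. That arrangement uses the A880 arrays for both strains and is given as a count. 9 of the 38 were called in no comparison as deposited: SDH1, SDH2, SDH4, QCR7, QCR8, QCR9, QCR10, COX13 and ATP4. Under alternatives each of these was called at least once: with quantile normalization SDH1, SDH2, SDH4, QCR7, QCR10, COX13 and ATP4, and without A880STM1 replicate 2 QCR7, QCR8, QCR9, QCR10, COX13 and ATP4. By their systematic names the 38 genes are spread over 12 chromosomes, with 9 on chromosome IV. 7 of those on chromosome IV were lower in A880STM1K than in A880, a call made for 28.0% of all tested probe sets. The median of all tested probe sets on that chromosome was log2 -0.27, beside -0.17 for all chromosomes. Medians of single chromosomes ran from log2 -0.49 (I) to 0.079 (VI).

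Genes that regulate, assemble or serve the respiratory chain were read on the same arrays, HAP4 and CYC1 being among those that rose in A880STM1K. HAP4 signal was 2320.1 and 1493 on the BY4741 arrays, 1112 and 1005 on the A880 arrays, 2481 and 2012 on those labelled A880STM1 and 7182 and 5431 on those labelled A880STM1K, so that both A880STM1K arrays lay above all others. HAP4 rose in A880STM1K by log2 2.56 ± 0.26 (adjusted p = 6.67e-05) against A880 and log2 1.75 ± 0.26 (adjusted p = 0.000411) against BY4741. On the same arrays 18 of the 38 respiratory genes fell and 3 rose against A880, and 16 fell and 7 rose against BY4741. With equal array medians 11 fell and 4 rose, and 9 fell and 5 rose, in the same order. Of all tested probe sets 28.0% were lower and 19.1% higher against A880, and 28.3% and 21.2% against BY4741. The DNA-binding partners of HAP4, named after their values were seen, were at log2 -1.09 ± 0.23 (adjusted p = 0.00318) for HAP2, log2 -1.25 ± 0.29 (adjusted p = 0.00544) for HAP3 and log2 -0.059 ± 0.29 (adjusted p = 0.882) for HAP5 against A880. The calls of HAP2 and HAP3 were lost without A880 replicate 1. Against BY4741, 10 of 15 listed regulators of respiration and carbon use fell and 1, HAP4, rose. CAT8, the activator of gluconeogenic genes, fell, with a change of log2 -3.52 ± 0.31 (adjusted p = 2.24e-05). CYC1, the main cytochrome c, which carries electrons from complex III to complex IV, had 302 and 241 on the BY4741 arrays, 395 and 359 on the A880 arrays, 2254 and 1353 on those labelled A880STM1 and 5143 and 6265 on those labelled A880STM1K. It rose against BY4741 by log2 2.70 ± 0.28 (adjusted p = 0.00042) in A880STM1 and log2 4.40 ± 0.28 (adjusted p = 4.64e-06) in A880STM1K. In this comparison 21.2% of all tested probe sets were called higher and 28.3% lower. Counted over lists, assembly and translation factors rose in A880STM1K against BY4741 for 6 of 11 genes of complex III (CBP3 by log2 2.52 ± 0.29), 12 of 29 of complex IV (the copper chaperone COX17 by 2.23 ± 0.23) and 6 of 15 of the ATP synthase (the F1 assembly factor ATP11 by 1.84 ± 0.27). 0, 2 and 2 fell in the same order, and the largest adjusted p of the named genes was 0.000336. Heme synthesis, which supplies the cofactor of complexes III and IV, had 6 of 8 genes higher and 0 lower, and ubiquinone synthesis had 6 of 10 higher and 1 lower. Under some alternatives fewer genes were called higher in each of these assembly, heme and ubiquinone lists. Complex III assembly and heme synthesis then also reached a lower call. Leaving out a BY4741 array also lowered the number of calls over all tested probe sets. The higher counts were 8 for complex IV assembly without BY4741 replicate 2, 3 for ATP synthase assembly without BY4741 replicate 1 and 3 for ubiquinone synthesis without BY4741 replicate 1 or BY4741 replicate 2. Medians were log2 0.89, 0.77, 0.27, 1.13 and 0.83 in the order named, against -0.40 for the 38 subunit genes and -0.11 for all tested probe sets. For A880STM1 against BY4741 limma called 0 genes of these 3 assembly lists and of ubiquinone synthesis in either direction (8 of 65 at an unadjusted p under 0.05), and heme synthesis had 2 higher.

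**Figure D5:**
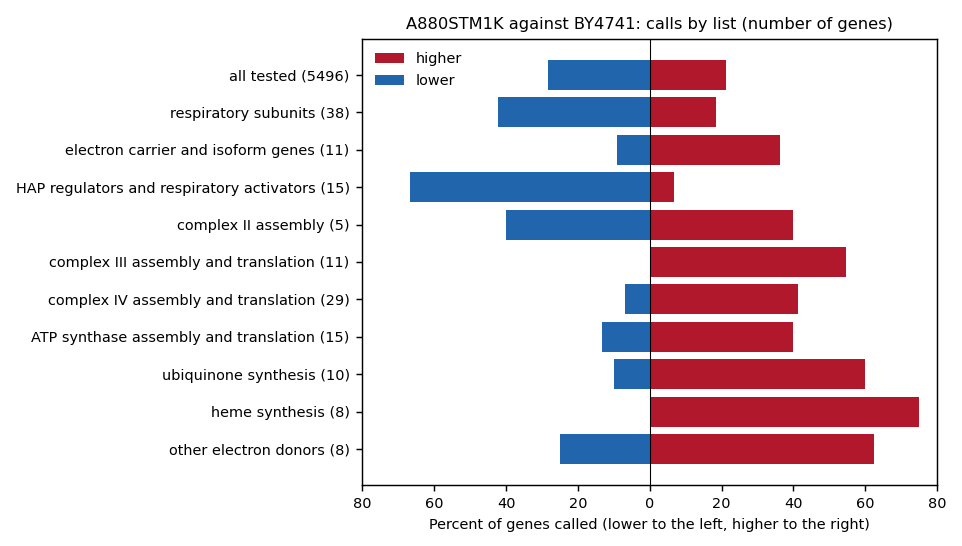
Percent of genes called higher (to the right) and lower (to the left) on the A880STM1K arrays against BY4741 (horizontal axis) in each list (vertical axis, with the number of genes), beside all tested probe sets and the 38 respiratory subunit genes. Lower calls exceed higher ones among the subunit genes and the listed regulators, and higher calls exceed lower ones among heme and ubiquinone genes and the assembly genes of complexes III and IV and the ATP synthase.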

How the data were processed

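Total RNA of 8 cultures, 10 µg for each Affymetrix array, was labelled with biotin, per the labels. The submitters' processing notes name MAS5 for the deposited intensity of each probe set, which is linear. Its version is not given in the sources used here. On each array the mean after trimming 2% at each end was about 500.2, so the arrays had been scaled to a common level. The platform annotation assigns 5498 of 10928 probe sets to a single S. cerevisiae gene and 1746 to another yeast species, and 12 symbols were updated through the R64 gene table. The 90th percentile of the other species' probe sets was taken as an array's background (5.15 to 8.40), and the 5496 probe sets above it on at least 2 arrays were tested. All 38 respiratory genes passed on all 8 arrays.

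Group means of log2 signal were fitted with limma 3.58.1 in R 4.3.3 (eBayes with an intensity trend, 4 residual degrees of freedom, prior 6.56), with Benjamini-Hochberg adjustment in each of 6 comparisons. "Every alternative tried" means quantile normalization, equal array medians, a pseudocount of 16, 2 other filters on dim probe sets, no intensity trend, only the 4 arrays compared, the replicate number as a block, and each array of the compared groups left out. Where 1 array is left in a group, it is assumed to vary like the others. The code was tested on simulated data. Members, gene lists, tests and alternatives were chosen with earlier results of these data known. Array values are given for up to 4 genes per complex with the smallest adjusted p in any comparison and for NDI1, NDE1, NDE2 and INH1; ATP1 and ATP2 were added after their values were seen. Up to 3 called genes per related list and comparison could be named, besides POP2, STM1 and HAP4. Of 121 related genes listed, 112 had a probe set of their own, 1 was a second name of another, and the 8 mitochondrially encoded genes were not analysed here. The POP2 bound is the BY4741 geometric mean over the background of the A880 arrays. The precision is limited by 2 arrays per group.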

Additional observations from a re-analysis of the deposited data

Results flagged for a closer look

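2 of the 38 genes changed in opposite directions from A880 in the transformed strains, with both changes called and the difference between them called in the direct comparison of A880STM1K with A880STM1, a pattern found in 0.873% of all tested probe sets. For QCR6 the difference was log2 -2.56 ± 0.25 (adjusted p = 7.17e-05), made of a change of log2 1.13 in A880STM1 and -1.43 in A880STM1K. For COX9 it was log2 -1.79 ± 0.23 (adjusted p = 0.000315), made of log2 0.77 and -1.02. Both differences held under every alternative tried, while the rise of each gene in A880STM1 was lost without A880 replicate 1, A880 replicate 2 or A880STM1 replicate 1, and that of COX9 also with equal array medians, with no intensity trend and with only the 4 arrays compared. The fall of COX9 against A880 was lost with equal array medians (log2 -0.67, adjusted p = 0.134). POP2 was detected on the arrays of both transformed strains, and its part in these differences was not tested.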

How the results depend on the processing

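None of the calls among the 38 genes changed sign under any alternative, and COX13, not called, went from log2 0.026 to a called -0.35 (A880STM1K against A880, limma adjusted p = 0.0384) with quantile normalization. For A880STM1K, 13 of 21 calls against A880, 16 of 24 against A880STM1 and 12 of 23 against BY4741 stayed past the threshold with quantile normalization, with equal array medians and whichever array was dropped, beside 0 of 3 for A880 against BY4741, 0 of 3 for A880STM1 against A880 and 2 of 14 for A880STM1 against BY4741. With quantile normalization the count for A880 against BY4741 was 9 and the median of the 38 genes log2 0.29, and the median for A880STM1 against A880 was 0.18. With equal array medians these medians were log2 0.055 and 0.92, and the counts were 9 for A880STM1 and 14 for A880STM1K, both against BY4741. Only the 4 arrays compared gave 20 for A880 against BY4741, and no intensity trend gave 9 for A880STM1 against BY4741. With 1 array left out the counts against BY4741 ranged over 0 to 2 (A880), 3 to 26 (A880STM1) and 14 to 24 (A880STM1K), those against A880 over 0 to 24 (A880STM1) and 16 to 24 (A880STM1K), and that between the transformed strains over 19 to 28. The medians ranged over log2 0.12 to 0.21, 0.43 to 0.84, -0.62 to -0.15, 0.29 to 0.73, -0.77 to -0.23 and -1.27 to -0.59 in that order. The cause of these shifts was not tested. A fit with 1 array left out also has fewer degrees of freedom, and the number of all tested probe sets called moved as well. Same-numbered replicates of different groups deviated together weakly, with correlations of 0.037 to 0.287 over all tested probe sets, positive in all 6 pairs of groups but near 0 between A880 and A880STM1, so the numbers were not taken as pairing. With the replicate number as a block the counts against BY4741 were 3, 14 and 22 for A880, A880STM1 and A880STM1K, those against A880 were 6 and 21 for A880STM1 and A880STM1K, and that between the transformed strains was 24. The block ended the calls of ATP2 in A880STM1K against BY4741 and of RIP1 between the transformed strains, and NDI1, QCR2 and QCR9 were called for A880STM1 against A880, and QCR2 between the transformed strains. With 2 arrays per group the smallest change called for A880STM1K against A880 was log2 0.68 in size, and the largest not called was 0.59.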
